A study of Mus musculus with 2 samples.

Results

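The Fc receptor genes considered here were Fcgr1, Fcgr3, Fcgr4, Fcgr2b, Fcer1g and Fcrls, taken by symbol from the 32285 genes of the files, and all 6 were measured in both libraries. The cells were CD45+ immune cells sorted from the left flank tumor of male C57BL/6 mice, 6 to 8 weeks old at purchase, that carried the mouse colon cancer line MC38 in both flanks. In the MWA group, the right flank tumor was treated with microwave ablation (MWA) at about 300 mm3 and the mice received an isotype control antibody. In the MWA+TIGIT group, mice with the same ablation received the antibody 1G9 against TIGIT, an inhibitory receptor of T and NK cells, by 3 intraperitoneal injections every 3 days from day 1, according to the labels (the methods of the study give another number). The left flank tumor, which had not been ablated, was taken on day 8, and each group was 1 library. The number of mice behind a library and the IgG subclasses of both antibodies were not given in the sources used here. Neither group has a replicate library, so no test was made. Intervals cover counting error only, and a difference between the libraries could come from the treatment, the mice or the preparation, which cannot be told apart.

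Fcγ receptors bind the constant part of IgG, and their engagement lets macrophages, neutrophils and NK cells ingest or kill antibody-coated cells. In the mouse, Fcgr1, Fcgr3 and Fcgr4 encode activating receptors that depend on the common γ chain, encoded by Fcer1g, whose ITAM motif recruits the kinase Syk. Fcgr2b encodes the inhibitory receptor, whose ITIM motif recruits the phosphatase SHIP1. The effect of a therapeutic antibody can depend on which of these receptors the immune cells of a tumor carry. Fcrls encodes an Fc receptor-like protein known as a marker of microglia and some tissue macrophages.

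In the annotation of the mouse genome build GRCm38, the genes lie at 2 places. Fcgr2b (chr1:170958617-170976547, minus strand), Fcgr4 (chr1:171018920-171029761, plus strand), Fcgr3 (chr1:171051174-171064935, minus strand) and Fcer1g (chr1:171229572-171234365, minus strand) lie within 275.7 kb of chromosome 1. No coding gene lies between Fcgr2b and Fcgr4 (42.4 kb) or between Fcgr4 and Fcgr3 (21.4 kb), and 7 lie between Fcgr3 and Fcer1g (164.6 kb). Fcgr1 (chr3:96282909-96293969, minus strand) and Fcrls (chr3:87250758-87263738, minus strand) lie on chromosome 3. Fcgr2b overlaps the antisense gene Gm38204, and a small RNA gene lies within both Fcgr3 (Mir6546) and Fcgr4 (Gm26110). Fcgr3 and Fcgr2b are close paralogs: 12.8% of the 50-base windows of the longest Fcgr3 coding transcript (166 of 1298) also occur in a Fcgr2b transcript. In the last 500 bases of the 6 transcripts, where the 3′ reads of this assay fall, none of the windows occurs in another gene.

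The promoters of Fcgr1 and Fcgr4 are printed because these 2 receptor genes differed most between the macrophage types described later, and those of Fcgr3 and Fcgr2b because they differed less. Each is 300 bases of RefSeq sequence (GRCm38.p6), from 250 bases before to 50 bases after the annotated start, 5′ to 3′ on the strand of the gene, and all 6 members matched an entry. Capitals mark matches, on either strand, to the core of the myeloid factor PU.1 (GAGGAA), to a GAS element (TTCNNNGAA), or to an ISRE-like element of interferon regulatory factors (GAAA, any 2 bases, GAAA).
Fcgr1 chr3:96293920-96294219, minus strand: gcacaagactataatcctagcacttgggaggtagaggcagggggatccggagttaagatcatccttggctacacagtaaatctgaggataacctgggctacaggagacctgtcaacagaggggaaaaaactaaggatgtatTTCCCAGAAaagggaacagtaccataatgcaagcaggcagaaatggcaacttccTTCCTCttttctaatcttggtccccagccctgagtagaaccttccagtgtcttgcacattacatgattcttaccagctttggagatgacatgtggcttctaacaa
Fcgr4 chr1:171018676-171018975, plus strand: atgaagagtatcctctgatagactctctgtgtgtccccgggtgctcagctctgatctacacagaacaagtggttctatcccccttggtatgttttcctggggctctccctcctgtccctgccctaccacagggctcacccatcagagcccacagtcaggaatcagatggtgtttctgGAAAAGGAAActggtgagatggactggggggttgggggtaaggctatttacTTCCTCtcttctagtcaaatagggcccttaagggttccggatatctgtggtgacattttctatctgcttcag
Fcgr3 chr1:171059354-171059653, minus strand: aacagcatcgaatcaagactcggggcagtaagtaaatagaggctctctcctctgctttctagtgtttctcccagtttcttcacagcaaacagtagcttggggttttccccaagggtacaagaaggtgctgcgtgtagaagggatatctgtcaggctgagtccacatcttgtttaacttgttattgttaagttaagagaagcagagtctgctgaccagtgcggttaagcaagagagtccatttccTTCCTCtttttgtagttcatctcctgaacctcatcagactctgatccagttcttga
Fcgr2b chr1:170976022-170976321, minus strand: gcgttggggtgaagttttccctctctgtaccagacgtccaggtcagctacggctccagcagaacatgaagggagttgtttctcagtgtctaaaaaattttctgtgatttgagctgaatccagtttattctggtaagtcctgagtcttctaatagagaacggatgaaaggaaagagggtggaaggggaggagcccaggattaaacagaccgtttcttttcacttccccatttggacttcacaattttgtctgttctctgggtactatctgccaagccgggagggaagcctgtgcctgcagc
The Fcgr1 window held a GAS match 109 bases before the start and a PU.1 core 55 bases before it. The Fcgr4 window held an ISRE-like match 73 bases before the start and a PU.1 core 22 bases before it. The Fcgr3 window held only a PU.1 core, 6 bases before the start, and the Fcgr2b window none of the 3 motifs. Of the promoters of 2 other members, Fcrls held a PU.1 core 144 bases before the start and Fcer1g no match. Among all 32851 RefSeq promoters of this length, 28.3% held the PU.1 core, 8.30% the GAS element and 3.44% the ISRE-like element. The 3 motifs do not share their marked letters in these windows, and a match to letters is not a measured binding site.

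The MWA library held 10217 barcodes and 66152465 UMIs (unique molecular identifiers, the counted RNA molecules), and the MWA+TIGIT library 10190 barcodes and 78751205 UMIs. After removal of called doublets and of cells over 10% mitochondrial UMIs or under 200 genes, 9231 and 9127 cells were kept, with median depths of 5363 and 6339 UMIs. In all, 37 barcodes occurred in both libraries, 29 of them among kept cells, and leaving them out moved none of the values beyond its counting interval. Cell types were named from markers, with members left out of the genes used for clustering. Tumor-associated macrophage-like (TAM-like) cells, which expressed C1qa (5203 and 5797 CPM in the MWA and MWA+TIGIT libraries) and Apoe, made up 40.2% (3710) and 41.5% (3790) of kept cells. A level is given in CPM, the UMIs of a gene per 1000000 UMIs of all genes, summed over the cells of a type. CPM values here are not scaled to gene length, so levels are compared between cells and libraries and not between genes.

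All 6 genes were expressed mainly by macrophages. Of the UMIs of all genes in kept cells, TAM-like cells held 33767904 of 56893889 in the MWA library. In the MWA+TIGIT library they held 42448123 of 67973259. TAM-like cells held 84.1% and 81.9% of the Fcgr1 UMIs of kept cells in the MWA and MWA+TIGIT libraries, 86.6% and 84.8% of Fcgr3, 85.8% and 84.4% of Fcgr4, 83.9% and 83.3% of Fcgr2b, 84.2% and 83.2% of Fcer1g, and 95.2% and 96.1% of Fcrls. Chil3 monocyte-like cells, led by Chil3, Ccl24 and Il1b, held most of the rest, between 8.83% and 14.8% of the UMIs of each receptor gene and of Fcer1g, but 1.35% and 1.88% of Fcrls. Against all other kept cells, 6 of 6 members were at least 2-fold higher in TAM-like cells in both libraries, where 12.0% of the 12859 genes measured were. When every cell was thinned to 1000 UMIs, a UMI of Fcgr3 was found in 41.8% and 45.0% of TAM-like cells, of Fcgr2b in 39.2% and 41.8%, of Fcgr1 in 18.3% and 20.3%, and of Fcgr4 in 9.99% and 11%. In T-like cells, which should lack these receptors, the same shares were 1.56% and 1.25% for Fcgr3, 1.33% and 1.01% for Fcgr2b, 0.699% and 0.487% for Fcgr1, and 0.266% and 0.452% for Fcgr4. Before thinning, at median depths of 8740.5 and 10687.5 UMIs in TAM-like and 3146 and 3391.5 in T-like cells, Fcgr3 was found in 94.4% and 96.4% of TAM-like and in 4.42% and 4.06% of T-like cells. Thinning left out 8 and 4 TAM-like and 51 and 56 T-like cells.

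Free RNA of lysed macrophages can reach droplets of every cell type, so a carried-over level was set beside the measured level. It is the level that each member would have if carried over with the macrophage genes C1qa, C1qb, C1qc and Apoe, at their ratio in TAM-like cells. These 4 genes stood at 2.53% and 2.20% of their TAM-like level in T-like cells and at 2.05% and 2.0% in NK-like cells. In T-like cells the measured level of the 4 Fcγ receptor genes was 0.811 to 1.10 times that carried-over level. The receptor UMIs of T-like cells were therefore near this level, which is called background here, and their source was not tested. In Ly6c2 monocyte-like cells the 4 macrophage genes stood at 10.2% and 8.02% of their TAM-like level. Fcrls was lower there, at 0.0426-fold (0.0195 to 0.0808) and 0.00787-fold (0.000954 to 0.0284) its TAM-like level. The carried-over level is thus a reference and not a measured floor.

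**Figure D1:**
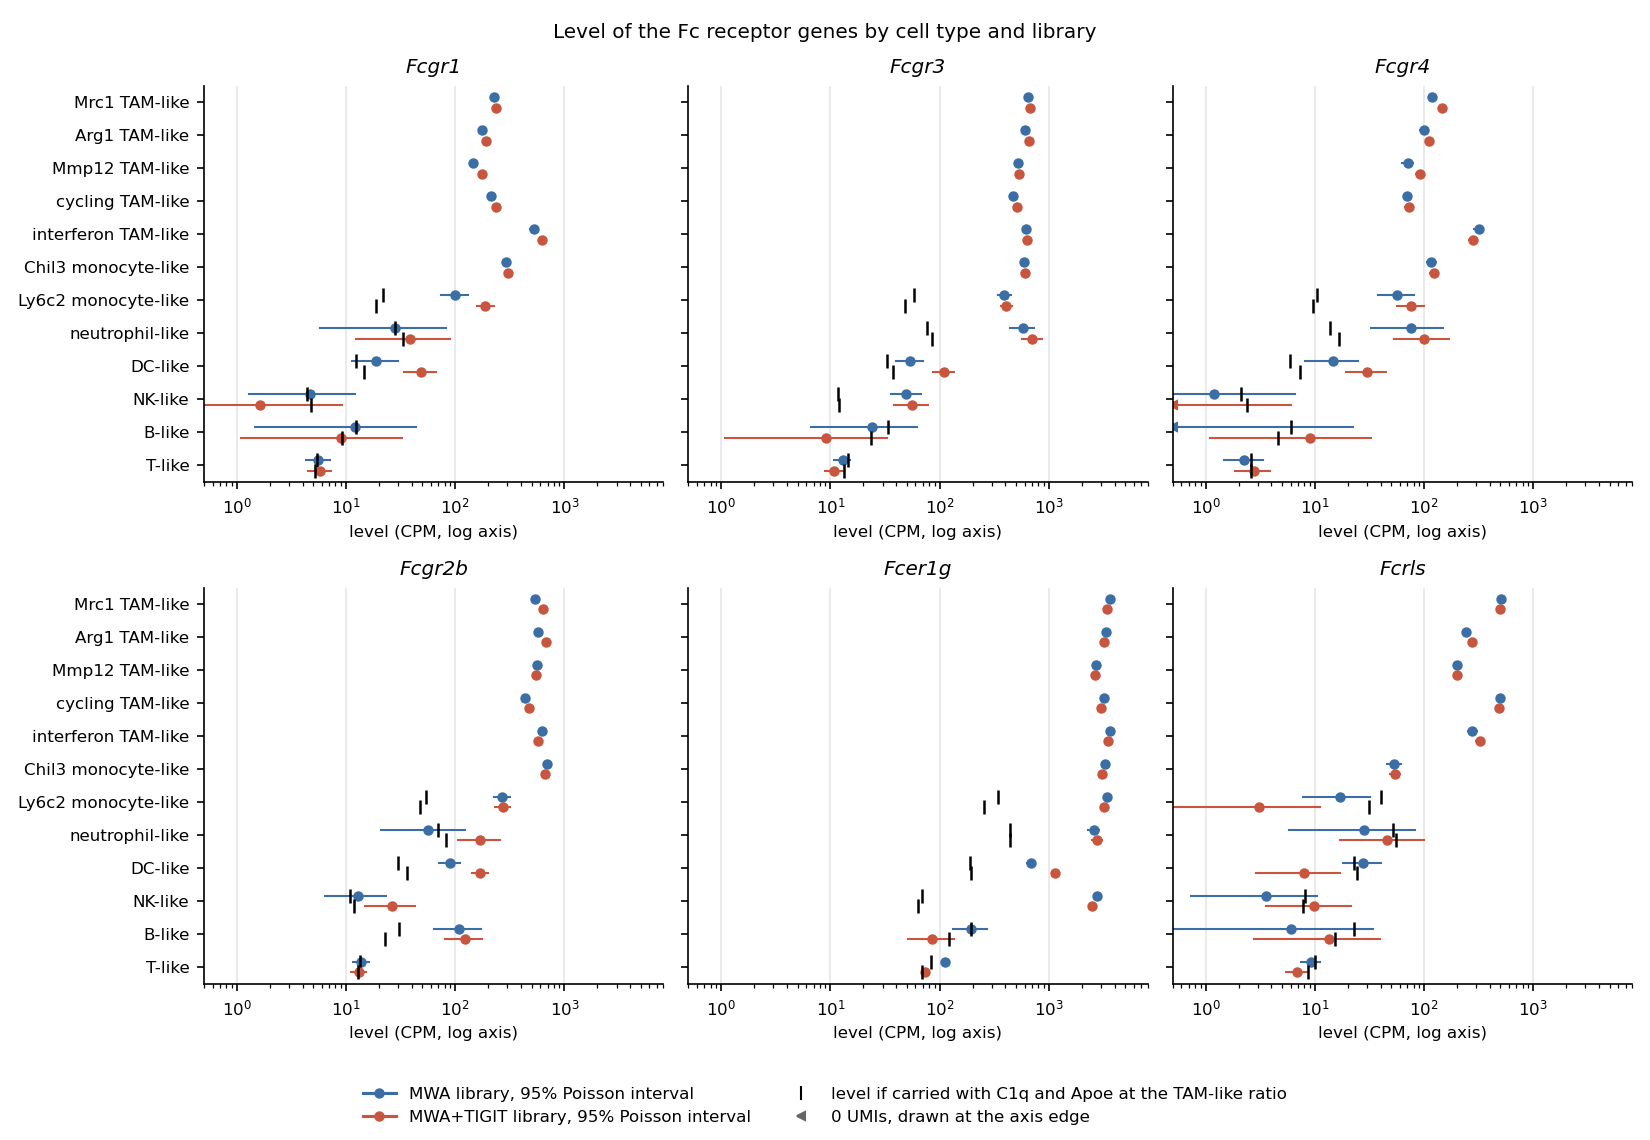
Level of the 6 genes (CPM, log axis) in 12 cell types, with 95% Poisson intervals for the MWA (blue) and MWA+TIGIT (red) libraries. Black ticks mark the carried-over level, a reference scaled from C1qa, C1qb, C1qc and Apoe, for the types outside the TAM-like and Chil3 monocyte-like cells. Fcgr1 and Fcgr4 peak in interferon TAM-like cells, Fcer1g is at 2753 and 2502 CPM in NK-like cells, and T-like cells sit near the ticks for the 4 Fcγ receptor genes.

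Fcgr1, the high-affinity activating receptor, had its highest level in interferon TAM-like cells, a cluster of 168 and 198 cells led by Rsad2, Cxcl10, Ifit2 and Cmpk2. Its level there was 521 CPM (485 to 560) in the MWA library and 623 CPM (589 to 657) in the MWA+TIGIT library, 2.59-fold and 2.87-fold that of the other TAM-like cells. Chil3 monocyte-like cells followed, with 294 and 303 CPM. Mrc1 TAM-like (227 and 236 CPM) and cycling TAM-like cells (214 and 235 CPM) came next, and their separate intervals overlapped in both libraries. Lower levels were found in Arg1 TAM-like cells (177 and 193 CPM) and Mmp12 TAM-like cells (147 and 177 CPM), the latter a cluster also led by heat-shock genes. Ly6c2 monocyte-like cells, led by Hp, Ifitm6 and Plac8, were the lowest of the TAM-like and monocyte-like types in the MWA library at 99.6 CPM. In the MWA+TIGIT library they had 189 CPM, and their interval overlapped those of Arg1 and Mmp12 TAM-like cells. Neutrophil-like, NK-like and B-like cells held between 1 and 5 Fcgr1 UMIs per library, which the carried-over level of macrophage RNA could give.

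Fcgr4, the activating receptor that binds IgG2a and IgG2b, had the same peak. In interferon TAM-like cells it stood at 318 CPM (289 to 348) in the MWA library and 281 CPM (259 to 305) in the MWA+TIGIT library, 3.38-fold and 2.55-fold that of the other TAM-like cells. Mrc1 TAM-like cells had 117 and 146 CPM, Chil3 monocyte-like cells 116 and 123 CPM, and Arg1 TAM-like cells 99.8 and 110 CPM. Cycling TAM-like cells (70.2 and 72.4 CPM), Mmp12 TAM-like cells (70.5 and 92.0 CPM) and Ly6c2 monocyte-like cells (56.4 and 75.8 CPM) were lower. Neutrophil-like cells, a type known to express Fcgr4, held 8 and 13 UMIs (75.3 and 99.5 CPM), 5.53 and 6.00 times the carried-over level. In NK-like cells 1 and 0 UMIs were counted, and the interval of the count of 0 reached 6.02 CPM.

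Fcgr1 and Fcgr4 were 2 of the 361 genes (2.81% of 12859) that were at least 2-fold higher in interferon TAM-like cells than in all other kept cells in both libraries, and the remaining 4 members were not. The cells of this cluster also carried monocyte markers: Ly6c2 stood at 155 and 244 CPM and Plac8 at 445 and 709 CPM, against 15.6 and 21.3 CPM and 36.0 and 53.9 CPM over all TAM-like cells, and all 9 genes of the monocyte marker list were detected, with a summed level of 1773 and 2011 CPM. Their part in the result was not tested. In the same cluster C1qa was at 5666 and 5676 CPM and Mrc1 at 238 and 217 CPM, against 5203 and 5797 CPM and 247 and 272 CPM over all TAM-like cells. In cells thinned to 1000 UMIs, a Fcgr1 UMI was found in 33.3% and 49.5% of interferon TAM-like cells and a Fcgr4 UMI in 25.0% and 27.8%. Without thinning these shares were 95.2% and 96.5% for Fcgr1 and 76.8% and 82.8% for Fcgr4. Among cells of at most 5000 UMIs the Fcgr1 level of this cluster was 897 and 785 CPM.

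Fcgr3, the low-affinity activating receptor, was spread more evenly over the macrophages than Fcgr1 and Fcgr4. It ranged from 472 CPM in cycling to 648 CPM in Mrc1 TAM-like cells in the MWA library, and from 505 to 675 CPM in the same types in the MWA+TIGIT library. Interferon TAM-like cells (622 and 624 CPM), Arg1 TAM-like cells (606 and 652 CPM) and Chil3 monocyte-like cells (594 and 604 CPM) lay between them. Mmp12 TAM-like cells had 525 and 536 CPM and Ly6c2 monocyte-like cells 391 and 409 CPM. Interferon TAM-like cells thus had 1.08-fold (1.01 to 1.16) and 1.03-fold (0.976 to 1.09) the Fcgr3 level of other TAM-like cells, in contrast to their Fcgr1 and Fcgr4 levels. Neutrophil-like cells reached the macrophage level with 574 CPM (439 to 737; 61 UMIs) and 704 CPM (568 to 864; 92 UMIs), 7.58 and 8.34 times the carried-over level.

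NK-like cells expressed the γ chain at a macrophage level and Fcgr3 at a low level. Fcgr3 is the receptor through which NK cells are known to kill antibody-coated cells. It was measured at 49.5 CPM (35.7 to 66.9; 42 UMIs) in the MWA library and 55.5 CPM (38.4 to 77.5; 34 UMIs) in the MWA+TIGIT library, 4.19 and 4.59 times the carried-over level, where T-like cells were at 12.9 and 10.8 CPM. These NK-like levels were far below those of TAM-like cells (575 and 605 CPM). Fcgr3 was found in 21% and 23.1% of NK-like cells at their full depth (medians of 4669 and 4403 UMIs), and in 5.99% and 4.31% after thinning to 1000 UMIs. Fcer1g was at 2753 CPM (2642 to 2867) and 2502 CPM (2378 to 2630) in NK-like cells, 40.3 and 39.7 times the carried-over level, and was found in 92.8% and 87.9% of them after thinning. Fcgr1 (4 and 1 UMIs), Fcgr4 (1 and 0 UMIs) and Fcrls (3 and 6 UMIs) were at background, and Fcgr2b (11 and 16 UMIs) was at 1.2 and 2.22 times the carried-over level. None of the 6 members was at least 2-fold higher in NK-like cells than in all other kept cells, where 5.82% of genes were. The NK markers Ncr1 (266 and 232 CPM) and Klrb1c (415 and 437 CPM) were present, and Trac was at 20.04 and 53.9 CPM, far under its level of 636 and 752 CPM in T-like cells.

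The γ chain also appeared in a small T cell cluster led by Klra7, Klra1 and Trdc, the constant segment of the δ chain of the T cell receptor. Its 169 and 133 cells had 1032 CPM (958 to 1111) and 761 CPM (692 to 835) of Fcer1g, 13.1 and 10.7 times the carried-over level. None of the Fcγ receptor genes stood clear of background there: Fcgr3 had 13 UMIs in either library, 1.38 and 1.63 times the carried-over level, with both intervals including 1. Over the myeloid types, Fcer1g was between 2650 and 3631 CPM in the 5 TAM-like and 2 monocyte-like types. It was at 2569 CPM (2273 to 2892; 273 UMIs) and 2757 CPM (2479 to 3057; 360 UMIs) in neutrophil-like cells.

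Fcgr2b, the inhibitory receptor, was high in the same macrophages as the activating receptors. In the MWA library Chil3 monocyte-like cells had the highest level at 694 CPM, followed by interferon (627 CPM), Arg1 (572 CPM), Mmp12 (564 CPM) and Mrc1 TAM-like cells (541 CPM), with every neighbour in this order inside counting error. In the MWA+TIGIT library Arg1 TAM-like cells (681 CPM), Chil3 monocyte-like cells (660 CPM) and Mrc1 TAM-like cells (632 CPM) led, followed by interferon (569 CPM) and Mmp12 TAM-like cells (553 CPM). Cycling TAM-like (437 and 474 CPM) and Ly6c2 monocyte-like cells (269 and 271 CPM) were lower in both libraries. B-like cells, for which Fcgr2b is known as the IgG receptor, had 109 CPM (64.5 to 172; 18 UMIs) and 122 CPM (80.3 to 177; 27 UMIs), 3.57 and 5.37 times the carried-over level. The other 5 members were within counting error of the carried-over level in B-like cells. Fcgr4 had 0 and 2 UMIs there, and the interval of the count of 0 reached 22.3 CPM. A Fcgr2b UMI was found in 16.3% and 20.6% of B-like cells (medians of 1868 and 2425 UMIs) and, after thinning, in 7.79% and 11.5%. In neutrophil-like cells the Fcgr2b count was 6 and 22 UMIs, which was 0.813 and 2.05 times the carried-over level.

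Fcrls followed the C1q macrophages more narrowly than the receptors did. Mrc1 (508 and 493 CPM) and cycling TAM-like cells (496 and 486 CPM) had the highest levels of the named types. Their separate intervals overlapped in both libraries. Interferon (277 and 321 CPM), Arg1 (243 and 274 CPM) and Mmp12 TAM-like cells (199 and 200.5 CPM) followed. The separate intervals of interferon and Arg1 TAM-like cells overlapped in the MWA library only. An overlap does not test their difference. Chil3 monocyte-like cells, in which the 4 Fcγ receptor genes were at 0.999-fold to 1.37-fold their TAM-like level, had 52.9 and 54.2 CPM of Fcrls, 0.133-fold and 0.138-fold that of TAM-like cells, and Ly6c2 monocyte-like cells 9 and 2 UMIs.

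**Figure D2:**
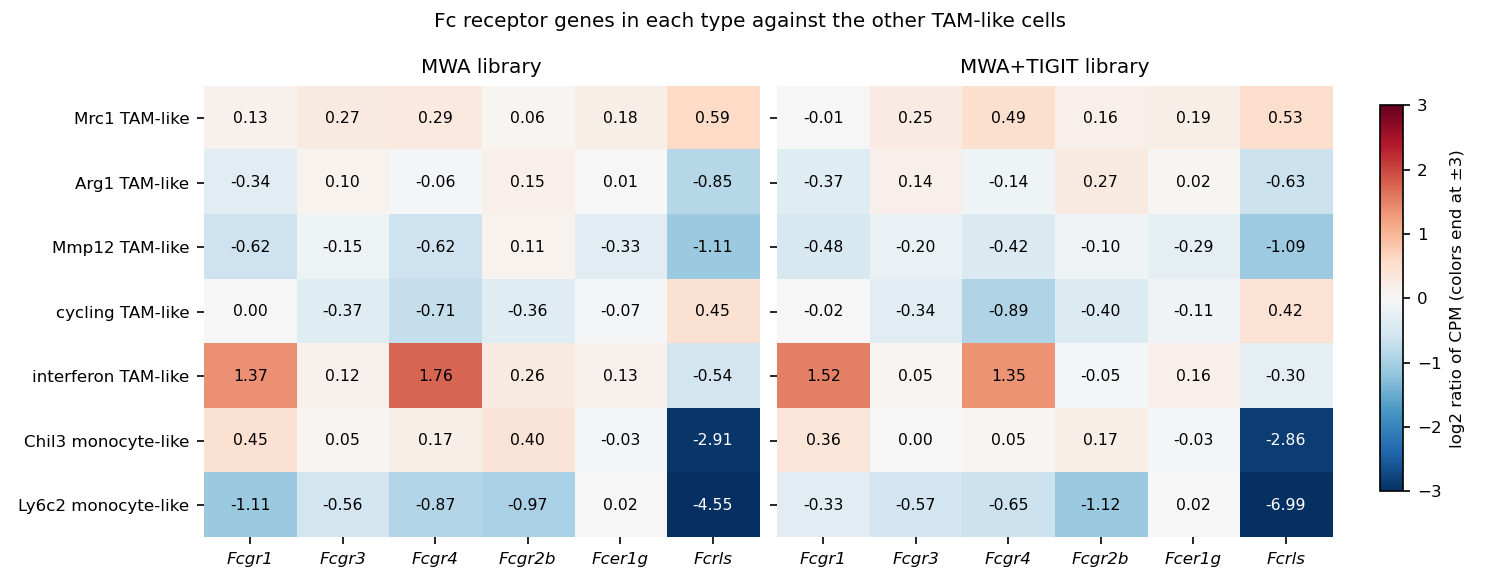
Log2 ratio of the CPM of each gene in a cell type to that of the other TAM-like cells of the same library, for 5 TAM-like and 2 monocyte-like types (for the monocyte-like types, to all TAM-like cells). Fcgr1 (1.37 and 1.52) and Fcgr4 (1.76 and 1.35) stand out in interferon TAM-like cells, and Fcrls is lowest in the monocyte-like types (-2.91 and -2.86 in Chil3 monocyte-like cells).

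The genes with the pattern most like each member were found by Pearson's r of log2(CPM + 1) over 26 points (13 cell types in 2 libraries, which share each library's depth and free RNA) among 4950 genes. Fcgr1 was most like Ctss (0.971), Clec4a2 (0.969) and Ms4a6d (0.965). Fcgr3 was most like Itgam (0.979), which encodes an integrin of myeloid and NK cells, Sdcbp (0.970) and the complement receptor C5ar1 (0.966). Fcgr4 was most like App (0.959), Sirpb1c (0.958) and Snx10 (0.950), and Fcgr2b most like Ctss (0.961), Lrp1 (0.956) and Ctsh (0.956). Fcer1g was most like Tyrobp (0.931), the ITAM adaptor also known as DAP12, with Tnfsf12 (0.887) and Metrnl (0.885) at a distance. Fcrls was most like the C1q genes C1qc (0.961), C1qa (0.957) and C1qb (0.956). Among the members the closest pair was Fcgr1 and Fcgr2b (0.935), followed by Fcgr1 and Fcgr4 (0.921), and the most distant pair Fcer1g and Fcrls (0.550).

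Because a cell's response to IgG is known to depend on the balance of activating and inhibitory receptors, the UMIs of Fcgr1, Fcgr3 and Fcgr4 together were set against those of Fcgr2b. TAM-like cells had 1.69 activating UMIs per Fcgr2b UMI (1.66 to 1.73) in the MWA library and 1.63 (1.61 to 1.66) in the MWA+TIGIT library, so the latter was 0.963 (0.940 to 0.987) of the former. Among cells of at most 5000 UMIs the values were 1.42 and 1.41. Interferon TAM-like cells had the highest ratio of the macrophages, 2.33 (2.15 to 2.53) and 2.69 (2.51 to 2.87), followed by Mrc1 (1.83 and 1.67) and cycling TAM-like cells (1.73 and 1.71). Arg1 (1.54 and 1.40), Mmp12 TAM-like (1.32 and 1.46) and Chil3 monocyte-like cells (1.45 and 1.56) were lower. Ly6c2 monocyte-like cells had 2.03 (1.66 to 2.50) and 2.49 (2.08 to 2.98). Neutrophil-like cells had 12.0 (5.25 to 33.8) and 5.0 (3.14 to 8.30), with intervals that overlap those of NK-like cells (4.27 and 2.19), and B-like cells had 0.333 (0.108 to 0.877) and 0.222 (0.0750 to 0.549). These ratios include background: the 6 Fcgr2b UMIs of neutrophil-like cells in the MWA library and each activating receptor gene of B-like cells (6 UMIs in all in either library) were within counting error of the carried-over level. The ratio of T-like cells, 1.51 and 1.47, is that of background near the TAM-like ratio.

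**Figure D3:**
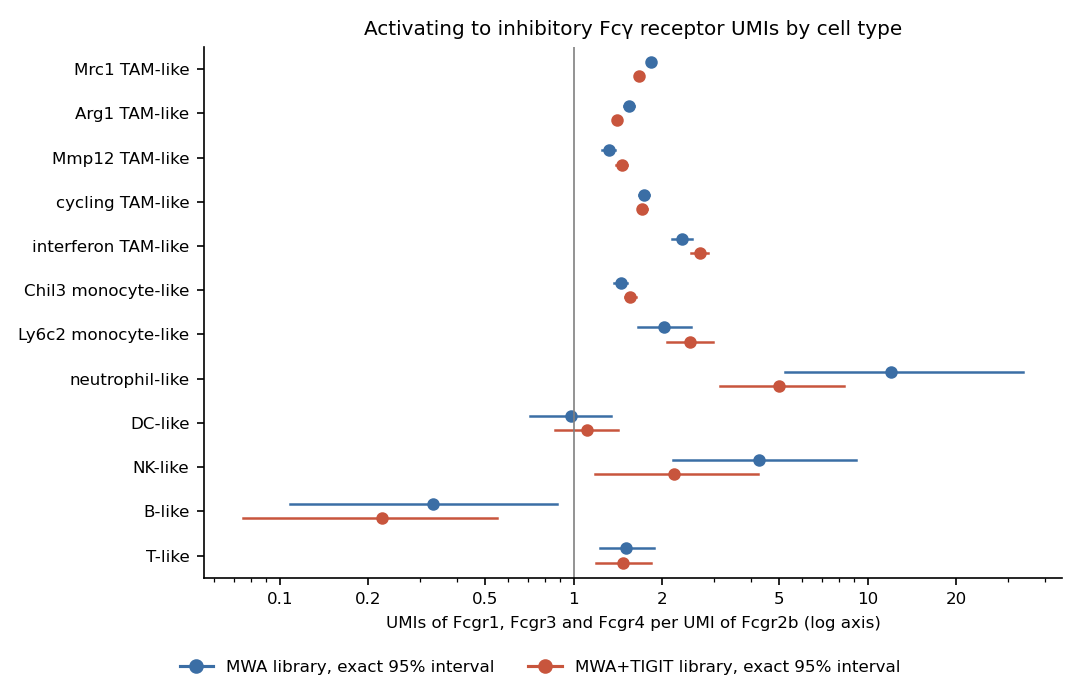
UMIs of Fcgr1, Fcgr3 and Fcgr4 together per UMI of Fcgr2b (log axis) by cell type, with exact 95% intervals for the MWA (blue) and MWA+TIGIT (red) libraries. Interferon TAM-like cells (2.33 and 2.69) lie above the other TAM-like types. The points of neutrophil-like (12.0 and 5.0), B-like (0.333 and 0.222), NK-like and T-like cells rest partly or wholly on UMIs near the carried-over level.

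Both kinds of receptor were found in the same macrophages. With cells thinned to 2000 UMIs, 49.2% and 53.7% of TAM-like cells of the MWA and MWA+TIGIT libraries had UMIs of an activating receptor and of Fcgr2b, 30.6% and 29.2% of an activating receptor alone, 10.4% and 10.2% of Fcgr2b alone, and 9.69% and 6.83% of neither. In interferon TAM-like cells 63.6% and 62.9% had both and 1.82% and 4.06% had Fcgr2b alone. In Ly6c2 monocyte-like cells the share with both was 24.5% and 28.8%, while 35.3% and 51.9% had an activating receptor alone. The share of T-like cells with both, the background at this depth, was 0.162% and 0.155%. A cell without a UMI of a gene at this depth can still carry its transcript. The shares with either kind alone therefore depend on level and depth and are not evidence of separate kinds of cells.

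**Figure D4:**
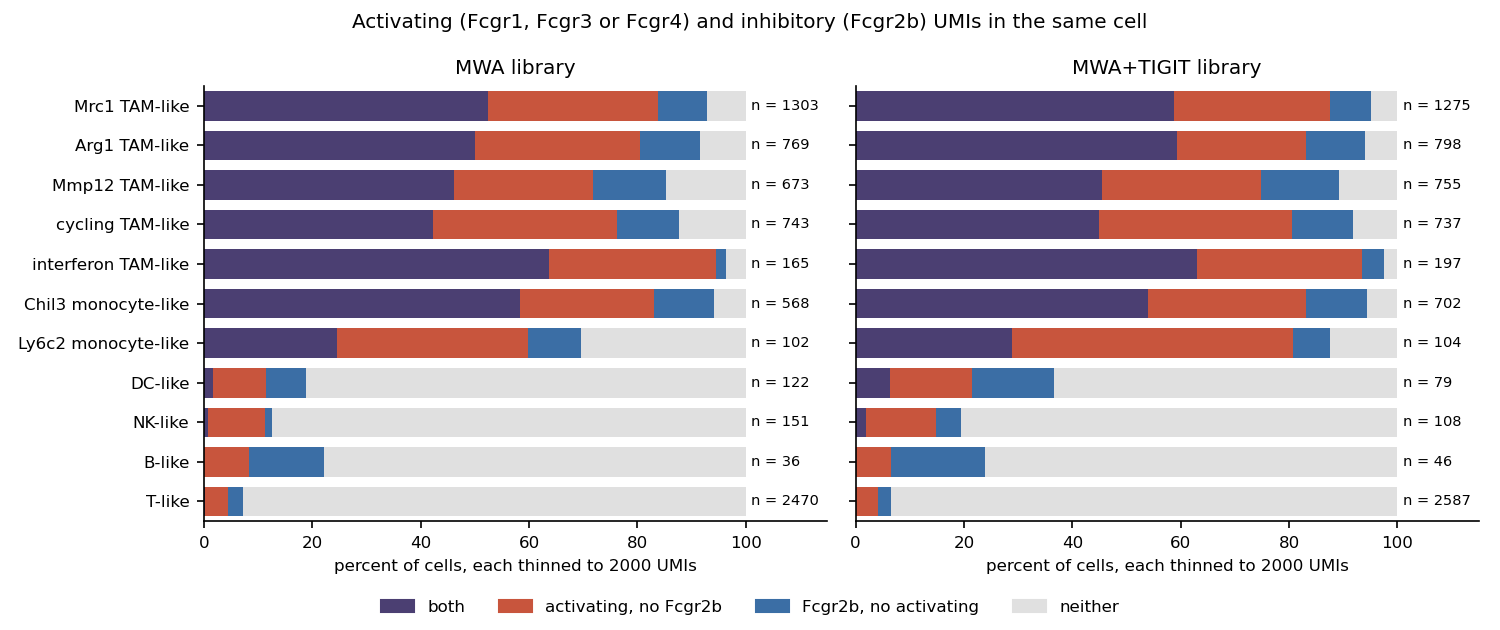
Share of cells (percent, each cell thinned to 2000 UMIs, number of cells beside each bar) with UMIs of an activating receptor gene and Fcgr2b, of an activating receptor gene alone, of Fcgr2b alone or of neither. Cells with both are 49.2% and 53.7% of all TAM-like cells (not drawn as a row of its own) and 63.6% and 62.9% of the interferon TAM-like cells drawn here, but 0.162% and 0.155% of T-like cells. A cell without a UMI of a gene at this depth can still carry its transcript.

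Between the libraries, the members differed little in macrophages. A gene is called different when its level differs at least 1.5-fold with at least 50 UMIs over both libraries, and 2.71% of the 11539 genes measured in TAM-like cells were called, but 0 of 6 members. In TAM-like cells Fcgr1 was at 215 CPM in the MWA and 237 CPM in the MWA+TIGIT library, a log2 ratio of 0.14 (0.10 to 0.18). Fcgr4 was at 103 and 119 CPM (0.20, 0.14 to 0.26), and Fcgr3 at 575 and 605 CPM (0.07, 0.05 to 0.10). The inhibitory Fcgr2b was at 527 and 588 CPM (0.16, 0.13 to 0.19). Fcer1g was at 3324 and 3150 CPM (-0.08, -0.09 to -0.07), and Fcrls at 398 and 393 CPM (-0.02, -0.05 to 0.02). The median ratio over all genes was 0.04. The ratios changed when only TAM-like cells of at most 5000 UMIs were used, a limit below their median depth in both libraries. The ratio was then -0.16 for Fcgr3, -0.19 for Fcgr4 and -0.10 for Fcgr2b, 0.01 for Fcgr1 and 0.14 for Fcrls. The directions of 4 of 6 members turned. This limit changes both depth and the set of cells, and the part of either was not tested. Across the 5 TAM-like types the Fcer1g ratio was below 0 in 5 of 5, from -0.11 to -0.04. The Fcgr1 ratio was above 0 in 5 of 5, from 0.05 in Mrc1 to 0.27 in Mmp12 TAM-like cells, with the interval above 0 in 4. The median ratio over all genes was 0.02 to 0.07 in these types. The types come from the same 2 libraries and are not replicates. Fcgr4 ranged from -0.17 in interferon to 0.38 in Mmp12 TAM-like cells, and Fcgr2b from -0.14 in interferon to 0.25 in Arg1 TAM-like cells.

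In Ly6c2 monocyte-like cells Fcgr1 was higher in the MWA+TIGIT library. Its level was 99.6 CPM (53 UMIs) in the MWA and 189 CPM (122 UMIs) in the MWA+TIGIT library, a log2 ratio of 0.92 (0.45 to 1.42). It was the only 1 of 5 members past the UMI minimum that was called, where 10.2% of 2910 genes were. The activating Fcgr4 (30 and 49 UMIs) had a ratio of 0.43 (-0.26 to 1.13), and Fcgr3, Fcgr2b and Fcer1g had ratios of 0.06, 0.01 and -0.08. Of the markers of these cells, Ly6c2 was at 1152 and 1629 CPM and Plac8 at 5053 and 6767 CPM, while Chil3 was at 1647 and 1667 CPM. The 9 monocyte markers summed to 10434 and 12897 CPM and the 8 interferon markers to 344 and 682 CPM, none of them at 0. Their part in the result was not tested. In cells picked by Ly6c2, Plac8 and Lyz2 UMIs instead of by cluster, the ratio was 0.52 and the call was lost.

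In DC-like cells, which carry markers of conventional and mature dendritic cells, activating and inhibitory receptors and the γ chain were all higher in the MWA+TIGIT library. Fcgr1 had 18 and 37 UMIs (19.0 and 48.5 CPM, log2 ratio 1.35, 0.50 to 2.25) in the MWA and MWA+TIGIT libraries, and Fcgr3 had 51 and 83 UMIs (53.7 and 109 CPM, 1.02, 0.50 to 1.55). Fcgr2b had 85 and 129 UMIs (89.6 and 169 CPM, 0.92, 0.51 to 1.33) and Fcer1g 644 and 876 UMIs (679 and 1147 CPM, 0.76, 0.61 to 0.91). These 4 of 4 members past the UMI minimum were called, where 14.9% of 3716 genes were. Fcgr4 (14 and 23 UMIs) and Fcrls (26 and 6 UMIs) fell below the minimum. All levels stood above the carried-over level except Fcgr1 and Fcrls in the MWA library and Fcrls in the MWA+TIGIT library.

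The makeup of the DC-like cluster also differed between the libraries. The 9 monocyte markers summed to 1139 CPM in the MWA and 2244 CPM in the MWA+TIGIT library, the 11 TAM markers to 1919 and 2469 CPM, the 8 mature dendritic cell markers to 814 and 427 CPM, and the 11 NK markers to 401 and 126 CPM, with none at 0. Among the markers of type 1 conventional dendritic cells, Xcr1 was at 273 and 261 CPM and Clec9a at 148 and 113 CPM, while the type 2 marker Cd209a was at 88.5 and 153 CPM. A UMI of Xcr1 or Clec9a was found in 50.4% of DC-like cells in the MWA and in 37.8% in the MWA+TIGIT library. The cells were therefore split by a UMI of Xcr1 or Clec9a, a split chosen after the values were seen. In the 62 and 51 cells without such a UMI, Fcer1g was at 1402 and 1708 CPM (log2 ratio 0.29, 0.12 to 0.45), Fcgr2b at 188 and 261 CPM (0.47, 0.03 to 0.92) and Fcgr3 at 80.4 and 147 CPM (0.87, 0.23 to 1.54). In the 63 and 31 cells with such a UMI, Fcer1g was at 156 and 549 CPM (86 and 203 UMIs, 1.82), but 5 of the 31 cells held 75.4% of the 203 UMIs, and the median cell had 1 Fcer1g UMI in either library. With called doublets kept, the ratios in DC-like cells were 0.18 for Fcgr1, 0.15 for Fcgr3, 0.18 for Fcgr2b and -0.00 for Fcer1g, and no call remained. The part of the makeup in these differences was not tested.

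In the lymphoid types only Fcer1g was called. In B-like cells it had 32 UMIs (193 CPM) in the MWA and 19 UMIs (85.7 CPM) in the MWA+TIGIT library, a log2 ratio of -1.17 (-2.07 to -0.31) for the 1 member past the UMI minimum, where 19.4% of 713 genes were called. Both levels were within counting error of the carried-over level (1.01 and 0.706 times). Plasma cell RNA was also found in a few B-like cells of the MWA+TIGIT library. Jchain was at 0 and 6828 CPM, but 60 of the 63 B-like cells of the MWA+TIGIT library held no Jchain UMI. In cells without a Jchain UMI the Fcer1g ratio was -0.81 (-1.73 to 0.07). In T-like cells Fcer1g was at 111 and 73.1 CPM (1235 and 826 UMIs, -0.61, -0.74 to -0.48), the 1 of 6 members called where 4.05% of 9917 genes were, and these levels were 1.32 and 1.05 times the carried-over level. Its ratio was between -0.46 and -0.38, and no longer called, with only cells of at most 5000 UMIs, with called doublets kept, with cells picked by fixed markers and with every cell at the same weight. In NK-like cells neither Fcer1g (-0.14, -0.23 to -0.04) nor Fcgr3 (0.16, -0.53 to 0.85) was called, where 9.33% of 3097 genes were. In neutrophil-like cells neither Fcgr3 (0.30, -0.19 to 0.79) nor Fcer1g (0.10, -0.13 to 0.33) was called, where 15.7% of 626 genes were.

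**Figure D5:**
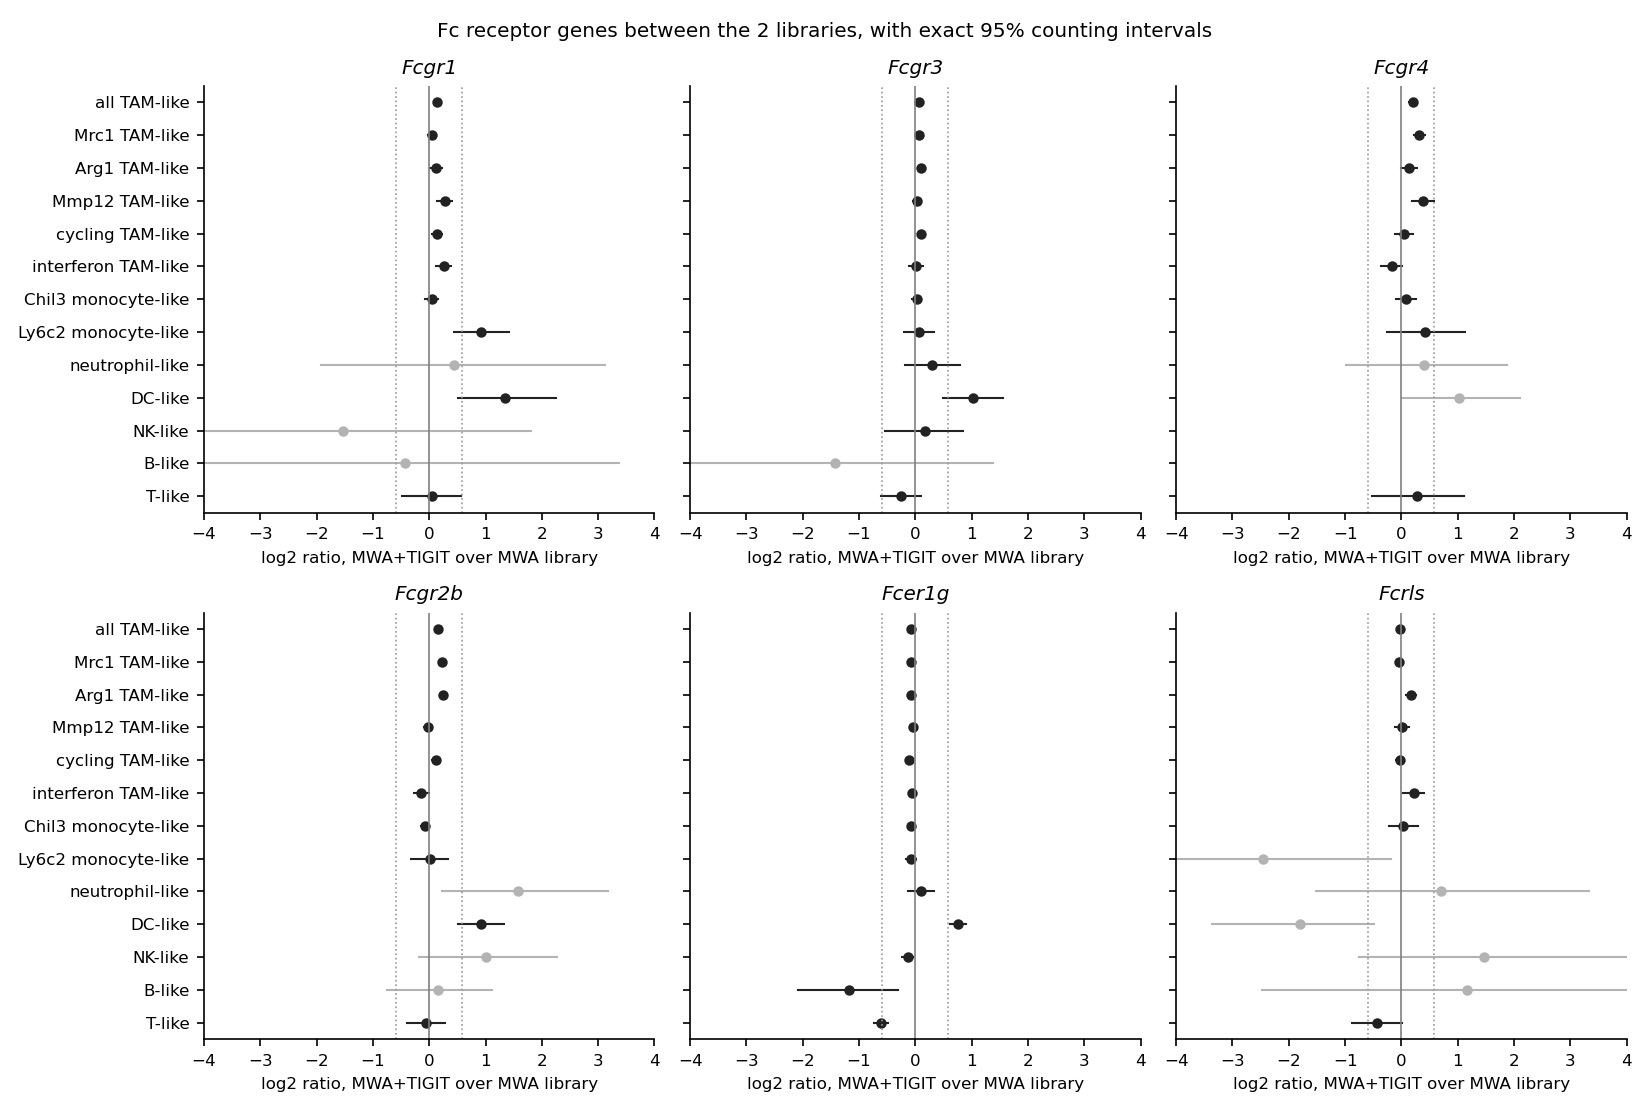
Log2 ratio of each gene between the MWA+TIGIT and MWA libraries in all TAM-like cells and 12 cell types, with exact 95% counting intervals; black points have at least 50 UMIs over both libraries, grey points fewer, dotted lines mark 1.5-fold, and a type with 0 UMIs in a library has no point. In all TAM-like cells every point lies between -0.08 and 0.20, and in DC-like cells Fcgr1 (1.35), Fcgr3 (1.02), Fcgr2b (0.92) and Fcer1g (0.76) lie beyond the dotted line.

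The genes around the receptors were followed in TAM-like cells as 6 lists, of which 112 of 113 genes are in the files and 99 had at least 50 UMIs. Of these, 4 were called, which is 4.04%, beside 2.71% of all genes. Of the 25 genes that carry the activating signal, 0 were called higher and 2 lower, Lat (2.84 and 1.86 CPM) and Zap70 (1.13 and 0.730 CPM), both known from T cells, with a median log2 ratio of 0.03. The T cell markers Cd3e (3.17 and 1.91 CPM) and Trac (3.38 and 2.33 CPM) were also lower in TAM-like cells of the MWA+TIGIT library, as was the sum of the 7 T cell markers (30.6 and 17.6 CPM, none at 0), and their part in the result was not tested. The extremes of this list were Gab2, an adaptor (0.22), and Zap70 (-0.62). Of 17 genes of inhibitory signalling, Pecam1 was called higher (1.04 and 1.77 CPM, 0.77) and Siglece, an inhibitory sialic acid receptor, was lowest (26.7 and 20.4 CPM, -0.39), with a median of 0.06. The receptors and adaptors that also use ITAM signalling had a median of -0.18 over 17 genes, with 14 below 0. Among these Cd247, a T cell receptor chain, was called lower (0.977 and 0.542 CPM, -0.85), and Cd300lf was highest (0.30).

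Of 13 other Fc receptor genes, 3 had at least 50 UMIs in TAM-like cells, and 0 were called. These were Fcrlb (123 and 201 UMIs, 0.38), Trim21 (198 and 298 UMIs, 0.26), the cytosolic antibody receptor, and Fcgrt (61.3 and 72.8 CPM, 0.25), the neonatal Fc receptor that recycles IgG. The high-affinity IgE receptor genes Fcer1a and Ms4a2 had 0 UMIs in TAM-like cells of both libraries. Of 20 genes of phagocytosis and the NADPH oxidase, 0 were called, with a median of 0.06, from Was (-0.09) to Wipf1 (0.19). Of 17 genes of the cytokine pathways that are known to set IgG receptor levels, 0 were called, with a median of 0.10 and the lowest ratio in Cebpa (-0.03), a transcription factor of myeloid cells. In DC-like cells 12 genes of the lists were called higher and 1 lower of 71 measured (18.3%, beside 14.9% of all genes there). The higher ones, named after their values were seen, included Fcgrt (79.0 and 139 CPM), the NADPH oxidase subunit Cybb (84.3 and 210 CPM) and the inhibitory receptor Cd300a (66.4 and 161 CPM), and the lower one was Vav3 (50.6 and 26.2 CPM), an exchange factor for Rac. These genes moved in the same cells whose monocyte and TAM marker sums differed between the libraries, and the part of that difference was not tested.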

How the data were processed

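CD45+ cells of the left flank tumors were profiled by droplet 3′ single-cell RNA sequencing. The authors deposited raw UMI counts per gene and cell barcode, which Cell Ranger had produced from reads aligned to mm10 (version 6.1.1 by the submitters' processing notes, 4.0.0 by the matrix header). The study's own filters on UMIs, mitochondrial share and doublets are not applied in these counts. Here, cells under 200 genes or over 10% mitochondrial UMIs and called doublets were left out (the caller recovered 64.4% and 62.5% of doublets added to the libraries). No UMI limit was set, since 55.2% and 60.3% of all barcodes, before these filters, had over 5000 UMIs. The 2 libraries were integrated with Seurat 5.3.0 (R 4.3.3) on up to 3000 features, selected from 2000 variable genes of each library. These left out the members and the list genes other than cell type markers. Cells were clustered on the integrated values, and the 31 clusters were named from fixed markers after they were seen.

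Counts were summed per type and library in Python 3.11.15 (scipy 1.17.1). Intervals are 95% exact Poisson for levels and exact conditional binomial for ratios. On simulated counts the ratio intervals held the true ratio for 95.4% of genes in TAM-like cells. The spread between mice or preparations was not measured with 1 library per group, so this check covers counting error only. For a count of 0 the upper end of the Poisson interval is given. The members and lists were chosen with earlier results of these data known. Beside the members, the text names the genes of highest and lowest ratio of each list in TAM-like cells, called list genes, and the 3 genes most like each member; 1 gene that this rule names is not reported here. Alternatives were edgeR 4.0.16 TMM factors, limits of 5000 UMIs or 5% mitochondrial UMIs, a clustering resolution of 1.0, called doublets kept, cells picked by markers, equal cell weights, other thinning depths and other gene filters. Leaving out shared barcodes or the interferon cluster, and the splits of DC-like and B-like cells, were chosen after seeing the data.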

Additional observations from a re-analysis of the deposited data

Results flagged for a closer look

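Fcgr2b, the inhibitory receptor, had intervals on opposite sides of 0 between the libraries in a pair of cell types. Its log2 ratio of the MWA+TIGIT to the MWA library was 0.92 (0.51 to 1.33) in DC-like cells and -0.14 (-0.27 to -0.01) in interferon TAM-like cells, where it was not called. The DC-like call was lost with called doublets kept (0.18) and in cells without an Xcr1 or Clec9a UMI (0.47). Fcer1g, the γ chain, had a ratio of 0.76 (0.61 to 0.91) in DC-like and of -1.17 (-2.07 to -0.31) in B-like cells, where its level was within counting error of carried-over macrophage RNA, and its DC-like ratio was -0.0024 with called doublets kept. Each type had 1 sample per group, so these differences between types were not tested.

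Fcgr2b was also high in a myeloid cluster that stayed unnamed because of its few UMIs per cell (medians of 1419 and 1173), with 261 and 312 cells led by mast cell proteases and ribosomal transcripts. Its level there was 929 CPM (838 to 1027) in the MWA and 852 CPM (770 to 940) in the MWA+TIGIT library, above the 527 and 588 CPM of TAM-like cells. The high level was not particular to Fcgr2b. Among the cluster's 412363 and 467168 UMIs, Fcrls had 285 and 219, Fcgr1 129 and 124, and Fcgr4 66 and 58. These levels were also above those of TAM-like cells in both libraries, but no intervals were computed for them. Fcgr3 (266 and 241 UMIs) was above TAM-like cells in the MWA library only, and Fcer1g (1145 and 1037 UMIs) in neither. The cells of this cluster were counted among all kept cells but described as no cell type.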

How the results depend on the processing

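No paired analysis was possible because each group had 1 library and the labels give no replicate numbers. The log2 ratios of the 6 members in all TAM-like cells kept their direction in 6 of 6 under 8 of the 9 alternatives, namely all but the UMI limit. With only cells of at most 5000 UMIs, 2 of 6 kept it, and the ratios were 0.0068 for Fcgr1, -0.16 for Fcgr3, -0.19 for Fcgr4, -0.10 for Fcgr2b, -0.095 for Fcer1g and 0.14 for Fcrls. The ratio of activating to inhibitory UMIs in TAM-like cells was then 1.42 in the MWA and 1.41 in the MWA+TIGIT library. With TMM factors the ratios in TAM-like cells were 0.039 for Fcgr3, 0.13 for Fcgr2b, -0.11 for Fcer1g and -0.050 for Fcrls, and with every cell at the same weight 0.12 for Fcgr2b and -0.066 for Fcer1g. TMM shifted the ratios of a type by over 0.1 in NK-like (-0.14), T-like (-0.11) and B-like cells (0.11). The count of list genes called in TAM-like cells, 4, became 0 with at least 200 UMIs, 12 with no filter beyond 1 UMI and 0 with a fold of 2. The Fcer1g ratio in DC-like cells turned to -0.0024 with called doublets kept, and was 0.01 with at most 5000 UMIs and 0.12 in cells picked by markers. The cause was not tested. In single cell types the direction was kept by 49 of 57 ratios with TMM, 52 of 57 with doublets kept, 8 of 10 with marker-picked cells, 50 of 57 at the same cell weight, 34 of 45 with at most 5000 UMIs and 57 of 57 in each of the 3 others. Neutrophil-like, B-like and NK-like cells held so few receptor UMIs that most members could not be compared between the libraries at this depth.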
